A study of Danio rerio with 5 samples.

Results

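Calreticulin (CALR) and the other chaperones of the endoplasmic reticulum (ER) were followed in single zebrafish cells carrying the runx1+23:mCherry transgene. The genes were taken by symbol from the tables of all 5 plates: CALR, the stress sensor EIF2AK3, and HSPA5, HSP90B1, CANX, PDIA3, PDIA4 and PDIA6. Of these 8 symbols, 6 had a row among the 23628 gene IDs, each under 1 ID: CALR (ENSDARG00000076290), CANX (ENSDARG00000037488), HSP90B1 (ENSDARG00000003570), PDIA4 (ENSDARG00000018491), PDIA6 (ENSDARG00000009001) and EIF2AK3 (ENSDARG00000062139). HSPA5, PDIA3 and the calreticulin paralogs calr3a and calr3b were not analysed here. Each of the 6 genes was rare: kept wells held 1620 unique molecular identifiers (UMIs, 1 per captured transcript) of HSP90B1, 1218 of CANX, 740 of PDIA4, 654 of CALR, 441 of PDIA6 and 95 of EIF2AK3, out of 9660480 estimated transcripts.

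Proteins that enter the ER fold there with the help of chaperones, and a shortfall of folding capacity turns on the unfolded protein response. CALR is a soluble calcium-binding chaperone that recognises sugar chains on new glycoproteins, and CANX (calnexin) is its membrane-bound counterpart. Calreticulin can also reach the cell surface, where phagocytes read it as a signal to engulf, and the study asked what macrophages do to blood stem cells that carry it. HSP90B1 (GRP94) is the ER member of the HSP90 family, PDIA4 and PDIA6 form and rearrange disulfide bonds, and EIF2AK3 (PERK) is the kinase that lowers translation during ER stress. HSPA5 (BiP), PDIA4, PDIA6, HSP90B1 and CALR are classical targets of the unfolded protein response in mammals.

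Single live mCherry+ cells were sorted at 3 days post-fertilization from embryos injected with the standard control morpholino (std MO) or the irf8 morpholino (irf8 MO), which blocks the formation of macrophages, and were sequenced by SORT-seq, a method that sorts 1 cell into each well of a 384-well plate. All cells carry the same transgene, in which the runx1+23 enhancer drives mCherry in hematopoietic stem and progenitor cells (HSPCs). On each of the 5 plates wells 1 to 188 held std MO cells and wells 189 to 384 held irf8 MO cells, so morpholino and position on the plate cannot be told apart, and nothing says whether plates came from separate clutches. The plate was taken as the replicate. The p-values therefore rest on how far a difference within a plate varies from plate to plate, and this spread may be technical. The targeted transcript gave 4 UMIs in 467 std MO wells and 12 UMIs in 466 irf8 MO wells, too few to check the labels, and a morpholino need not lower its target's transcript.

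Of 1920 wells, 933 with at least 1000 transcripts were kept, 467 of 940 std MO wells and 466 of 980 irf8 MO wells, and plates 3 and 5 gave 80 and 45 of them. The labels call all cells HSPCs, but the markers MYB, KIT and FLI1 were each found in a minority of the kept wells, while the marker hmga1a was found in most. Globin genes took at least 10% of the transcripts in 571 wells, called globin-rich here, in which MYB, a transcription factor of blood progenitors, was found in 2.28% of wells and the erythroid genes alas2 and SLC4A1 in 100% and 99.6%. Another 91 wells held at least 1 MYB UMI and were not globin-rich (MYB-positive), with KIT in 33.0% and FLI1 in 36.3% of them. The remaining 271 wells, called other, held no MYB UMI by definition, and 108 of them were led by muscle genes. FLI1 was found in 24.7% and KIT in 9.23% of other wells. In contrast, hmga1a was found in 62.2% of globin-rich, 100% of MYB-positive and 88.6% of other wells. IKZF1 was found in 9.46%, 31.9% and 9.96% of them. Whether globin-rich and other wells held HSPCs was not tested. The classes also shared erythroid genes: alas2 was found in 70.3% of MYB-positive and 41.0% of other wells, and SLC4A1 in 89.0% and 52.4%. alas2 held 344 and 1172 UMIs there, against 25199 in globin-rich wells. gata1a was found in 38.9% of globin-rich, 30.8% of MYB-positive and 10.7% of other wells. All but 2 of the globin-rich wells lay on plates 1, 2 and 4. The macrophage markers MPEG1, marco and c1qa gave 4, 0 and 2 UMIs in globin-rich wells and 1, 0 and 7 in MYB-positive wells. In other wells they gave 29, 3 and 12 UMIs. MPEG1 was thus higher in other wells, at 7.93 CPM (defined below) against 0.488 CPM in MYB-positive wells. The marker c1qa was found in 6.59% of MYB-positive and 2.95% of other wells. Its level was nearly even between them, at 3.42 and 3.28 CPM. Median depth was 12175 transcripts in MYB-positive, 5224 in globin-rich and 5435 in other wells. Of the MYB-positive wells 25 rested on a single MYB UMI, and 11 kept wells had a globin share of 8 to 12%.

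Within the globin-rich wells the levels of CALR, PDIA4 and PDIA6 were higher with the irf8 morpholino on all 3 plates compared. Each passed edgeR's test narrowly, and none of the 3 calls held with DESeq2 or with any of the plates left out. The 3 genes passed the filter on low counts through the irf8 MO wells alone. Their adjusted p-values therefore carry no weight beyond each gene's own values. Levels are given as CPM, counts of the gene's transcripts per 1e+06 transcripts of the summed wells, for plates 1, 2 and 4 in that order, the only plates with at least 5 globin-rich wells of each morpholino. CALR stood at 22.9, 7.29 and 25.4 CPM in std MO wells, from 12, 2 and 13 UMIs, and at 60.2, 33.0 and 76.4 CPM in irf8 MO wells, from 42, 26 and 87 UMIs. It was higher with the irf8 morpholino on all 3 plates, and the groups did not overlap. How many of all genes lack overlap is not given, so this and later statements on overlap describe single genes only. The log2 fold change was 1.29 (SE 0.30, adjusted p = 0.048), by the quasi-likelihood test of edgeR over 4138 genes, in which plates enter as blocks. In this comparison 3.14% of all genes tested were called higher, 4.47% lower and 7.61% in either direction at an adjusted p of 0.05.

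The second lectin chaperone, CANX, had 47.8, 29.2 and 47.0 CPM in std MO and 88.9, 81.3 and 81.6 CPM in irf8 MO wells. The groups did not overlap here either, with a mean of 41.3 ± 10.5 against 83.9 ± 4.30 CPM (SD, n = 3 plates), but the adjusted p of 0.15 by edgeR missed the threshold (log2 fold change 0.69, SE 0.24). HSP90B1 was at 65.0, 47.4 and 66.5 CPM in std MO and 132, 66.1 and 123 CPM in irf8 MO wells. It was higher on each plate, yet the irf8 MO value of plate 2 lay below the std MO value of plate 4, and the log2 difference of 0.50 (SE 0.24) did not pass edgeR's test (adjusted p = 0.27).

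Both disulfide isomerases were likewise higher with the irf8 MO on each plate. PDIA4 had 17.2, 14.6 and 27.4 CPM in std MO and 73.1, 48.3 and 72.9 CPM in irf8 MO wells, with no overlap (log2 fold change 1.41, SE 0.29, adjusted p = 0.038 by edgeR). PDIA6 had 15.3, 3.64 and 7.83 CPM in std MO and 54.5, 27.9 and 36.9 CPM in irf8 MO wells, again with no overlap (log2 fold change 1.81, SE 0.40, adjusted p = 0.043 by edgeR). EIF2AK3 was near the limit of detection, with 5 UMIs in std MO and 14 in irf8 MO wells, and did not pass the filter on low counts.

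**Figure D1:**
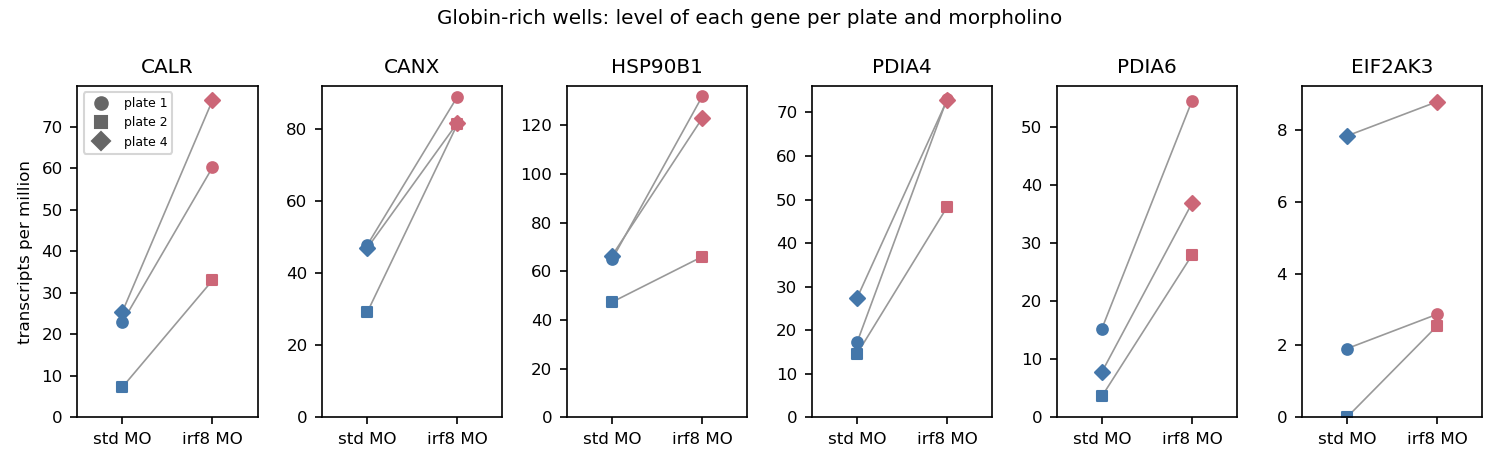
Level of each gene in globin-rich wells (y axis, CPM) on plates 1, 2 and 4 with the std and irf8 morpholinos, lines joining the wells of 1 plate. All lines rise, and EIF2AK3 rests on 19 UMIs. The share of all genes without overlap is not given here. Of all genes tested in these wells, 52.6% had a positive fitted difference.

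Of the 6 genes, 5 passed the filter on low counts in globin-rich wells and 3 were called, but with 13 to 27 UMIs of PDIA6, PDIA4 and CALR over all std MO wells these genes passed the filter through the irf8 MO wells alone, so the count of 3 carries no weight beyond each gene's own values. None of the 3 calls held when plate 1, 2 or 4 was left out (0 of the 5 chaperones called each time, and 33, 150 and 9 of all genes, with log2 fold changes of 1.22 to 1.45 for CALR, 1.22 to 1.56 for PDIA4 and 1.71 to 2.12 for PDIA6) or with DESeq2 (adjusted p of 0.12 for PDIA4 and 0.20 for CALR, none given for PDIA6), and without the block for plate only PDIA4 was called (adjusted p = 0.041). Without the largest well of each sum CALR and PDIA6 were not called (adjusted p of 0.14 and 0.093 by edgeR). The globin-rich wells of the 2 morpholinos also differed in other ways. Their median globin share was 56.4%, 57.3% and 52.5% with the std MO and 51.6%, 49.9% and 46.6% with the irf8 MO. Their median depth was 4168, 3752 and 4453 transcripts against 6008, 5905 and 7985. Every irf8 MO value was thus lower in globin and higher in depth than every std MO value. The erythroid list (11 genes, 10 of them seen with each morpholino) took 1.69 to 2.70% of non-globin transcripts in std MO and 2.18 to 3.09% in irf8 MO wells, the HSPC list 0.146 to 0.205% against 0.191 to 0.280%, the cartilage list 0.176 to 0.465% against 0.272 to 0.549%, and the muscle list 0.416 to 1.92% against 0.665 to 2.43%. The erythroid, HSPC and muscle lists were higher with the irf8 MO on each plate, and the cartilage list on plates 1 and 4. The macrophage list was lower with the irf8 MO on each plate, at 0.0592, 0.0628 and 0.0451% against 0.0486, 0.0498 and 0.0446%, and the lens list took 2.10, 0.100 and 0.0488% against 0.276, 0.173 and 0.104%. The neural list, with 0.0260 to 0.144% against 0.0685 to 0.158%, and the thrombocyte list, with 0.0174 to 0.0291% against 0.0183 to 0.0188%, overlapped. The part of these shifts in the result was not tested.

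In MYB-positive wells the fitted differences were positive for the same 5 genes, and for 49.7% of all genes tested. None of the 5 passed the test. CANX had 116, 135 and 117 CPM in std MO and 164, 324 and 209 CPM in irf8 MO wells, and the groups did not overlap. CALR had 70.8, 36.9 and 26.7 CPM against 75.9, 127 and 10.4 CPM, so that it was higher on 2 plates and lower on plate 4, where the irf8 MO value rests on 1 UMI. For CALR, the 1 calreticulin gene analysed here, a difference between morpholinos was not detectable (log2 fold change 0.47, 95% interval by normal approximation -0.65 to 1.58). PDIA6 had 16.6, 36.9 and 63.4 CPM with the std MO and 67.9, 94.0 and 125 CPM with the irf8 MO, with no overlap. PDIA4 had 25.0, 24.6 and 96.9 CPM against 67.9, 180 and 146 CPM, higher on each plate but with overlap. HSP90B1 had 66.6, 135 and 207 CPM against 236, 377 and 178 CPM. Its order turned over on plate 4, which held 5 irf8 MO wells. The log2 fold changes were 1.44 (SE 0.50) for PDIA4, 1.31 (SE 0.42) for PDIA6, 0.97 (SE 0.44) for HSP90B1 and 0.79 (SE 0.32) for CANX, all with an adjusted p of 0.35 or more by edgeR's quasi-likelihood test. At an adjusted p of 0.05 edgeR called 0% of 2969 genes in this comparison, while 348 genes, CANX among them, had an unadjusted p under 0.05. PDIA6, with 4, 6 and 19 UMIs in std MO wells, and PDIA4, with 6, 4 and 29, passed the filter on low counts through the irf8 MO wells. Their p-values therefore carry no weight beyond each gene's own values. DESeq2 called 13 genes and 0 of the 2 chaperones to which it gave an adjusted p. EIF2AK3 had 20 UMIs in std MO and 12 in irf8 MO wells, was lower with the irf8 MO on all 3 plates (means of 26.4 ± 11.9 against 15.7 ± 4.83 CPM, SD, n = 3) and was not tested, for low counts. Without plate 4, HSP90B1 alone of the 5 was called (log2 fold change 1.52, adjusted p = 0.034 by edgeR). Without the largest well of each sum the log2 fold changes were 0.81 for PDIA4, 0.42 for PDIA6, 0.58 for HSP90B1, 0.66 for CANX and 0.33 for CALR. Other measures moved with the morpholino in these wells. Their median depth was 9595, 10660 and 12825 transcripts with the std MO and 17454, 12806 and 22709 with the irf8 MO. The muscle list took 0.121 to 0.725% of transcripts against 0.735 to 0.944%, without overlap, and the cartilage list 0.0170 to 0.0241% against 0.0209 to 0.452%. The part of these shifts was not tested.

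In other wells, present on all 5 plates, the levels overlapped for every gene. CALR ranged from 61.2 to 134 CPM with the std MO and from 48.7 to 159 CPM with the irf8 MO, and was higher with the irf8 MO on 2 of 5 plates. CANX came closest to a difference, with 90.7, 108, 161, 107 and 142 CPM against 200, 214, 205, 93.8 and 206 CPM on plates 1 to 5 (log2 fold change 0.71, SE 0.27, unadjusted p = 0.033, adjusted p = 0.88, edgeR). It was higher on 4 plates and lower on plate 4. HSP90B1, PDIA4 and PDIA6 had log2 fold changes of 0.14, 0.51 and 0.10, with standard errors of 0.28 to 0.44. Of 3809 genes edgeR called 0%, with 199 genes at an unadjusted p under 0.05, and DESeq2 called 20 genes and 0 of these 5.

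Over all kept wells together the 5 tested genes again had positive log2 fold changes, from 0.10 for HSP90B1 to 0.67 for PDIA4, as had 47.1% of all genes. Of the 5, 0 was called by edgeR or DESeq2, where edgeR called 0.014% of 7141 genes. CANX was higher with the irf8 MO on all 5 plates, with means of 117 ± 50.4 and 168 ± 57.8 CPM (SD, n = 5), and alone had an unadjusted p under 0.05 (0.028, adjusted p = 0.48 by edgeR). EIF2AK3 was lower with the irf8 MO on 4 of 5 plates, with means of 13.6 ± 6.37 and 9.84 ± 6.89 CPM. On plate 5, counted among the 4, it was nearly even at 21.95 and 21.94 CPM, the latter from 2 UMIs. These sums mix the classes in proportions that differ between plates.

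**Figure D2:**
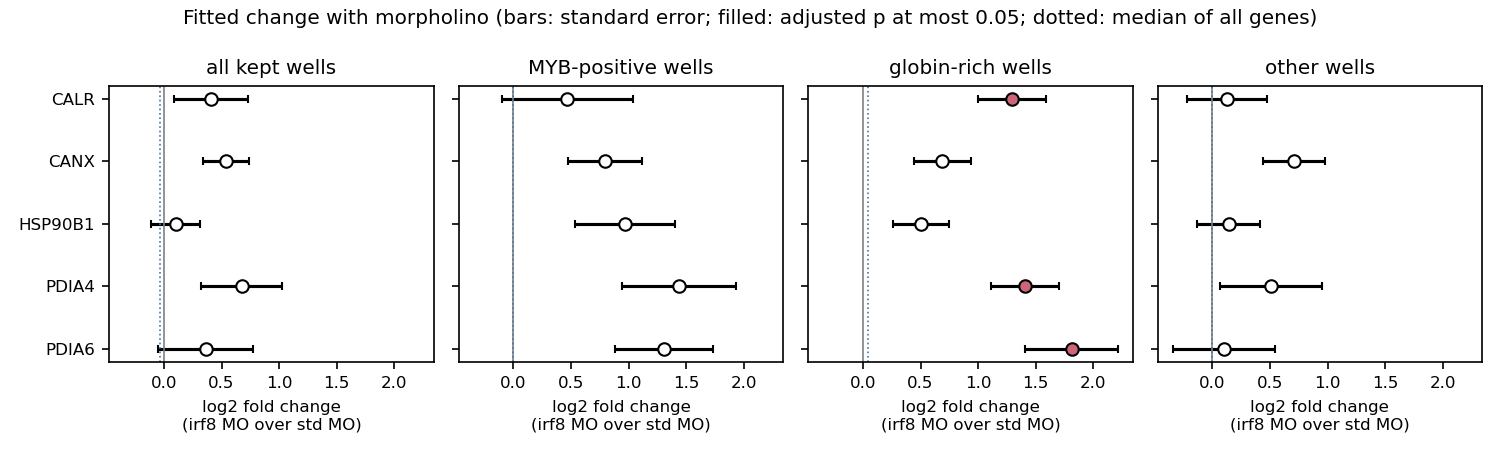
Log2 fold change of irf8 MO over std MO (x axis) with its standard error for the 5 genes tested, in all kept, MYB-positive, globin-rich and other wells. Filled points, with an adjusted p of at most 0.05, are CALR, PDIA4 and PDIA6 in globin-rich wells, and all other points are open. The genes with filled points passed the filter on low counts through the irf8 MO wells alone. Dotted lines mark the median of all genes tested.

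A call in globin-rich wells and none elsewhere does not show that the classes responded differently, so the difference itself was tested on plates 1, 2 and 4, a test chosen after the data had been seen. None of the 5 genes differed between classes at an adjusted p of 0.05, and edgeR called 0% of 6100 genes in each of the 3 contrasts, with 394 to 403 genes at an unadjusted p under 0.05. PDIA6 came closest, with a change that was larger in globin-rich than in other wells by 1.92 on the log2 scale (SE 0.61, unadjusted p = 0.0090, adjusted p = 0.62, edgeR). For CALR this difference was 1.27 (SE 0.63, unadjusted p = 0.065 by edgeR) and against MYB-positive wells 0.91 (SE 0.68, unadjusted p = 0.21). Both had an adjusted p of 0.77 or more.

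Between classes no chaperone was called. Because globins fill 38.1 to 44.4% of the transcripts of globin-rich sums on plates 1, 2 and 4, levels are given here as non-globin CPM, taken over all transcripts but those of globin genes, as the mean over plates, with 3 plates for MYB-positive and globin-rich and 5 for other wells. CALR stood at 66.1 ± 39.7 in MYB-positive, 73.5 ± 25.3 in globin-rich and 88.1 ± 33.5 in other wells (SD). CANX stood at 184 ± 74.6, 119 ± 4.03 and 151 ± 36.8, and HSP90B1 at 221 ± 78.3, 152 ± 36.3 and 227 ± 93.5. For these 3 genes the intervals of mean and SD overlapped between neighbouring classes. PDIA4 was at 97.0 ± 44.6, 83.2 ± 11.9 and 97.3 ± 28.2, and PDIA6 at 66.6 ± 20.2, 49.3 ± 13.0 and 52.4 ± 22.7. Among the 6 genes the clearest order was that of EIF2AK3, with 23.7 ± 8.24 in MYB-positive, 7.09 ± 5.74 in globin-rich and 8.93 ± 4.36 in other wells. The 3 MYB-positive sums of at least 5 wells lay above all 8 sums of the other classes. The test over 8712 genes nevertheless called 0 of 6 genes in each of the 3 class contrasts by edgeR, where it called 19.9% of genes between MYB-positive and globin-rich wells (9.25% higher in the former and 10.7% lower), 7.06% between MYB-positive and other wells (2.81% higher and 4.25% lower), and 12.9% between other and globin-rich wells (4.99% higher and 7.93% lower). The median log2 difference of all genes was -0.15, -0.16 and 0.10 in these contrasts. On plates 1, 2 and 4 EIF2AK3 held 10, 9 and 13 UMIs in MYB-positive, 3, 2 and 14 in globin-rich and 10, 3 and 7 in other wells. It passed the filter on low counts through the MYB-positive wells, where it is high, so no p-value is given for it. Its log2 difference was 1.64 (SE 0.56) between MYB-positive and globin-rich wells and 1.24 (SE 0.54) between MYB-positive and other wells. For CALR the intervals of the log2 difference, by normal approximation, were -1.30 to 0.59 (MYB-positive against globin-rich) and -0.73 to 1.05 (other against globin-rich). They are wide enough to hold a difference of more than 1. The first difference, -0.35, became 0.63 when globin-rich was set at a globin share of at least 20%.

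**Figure D3:**
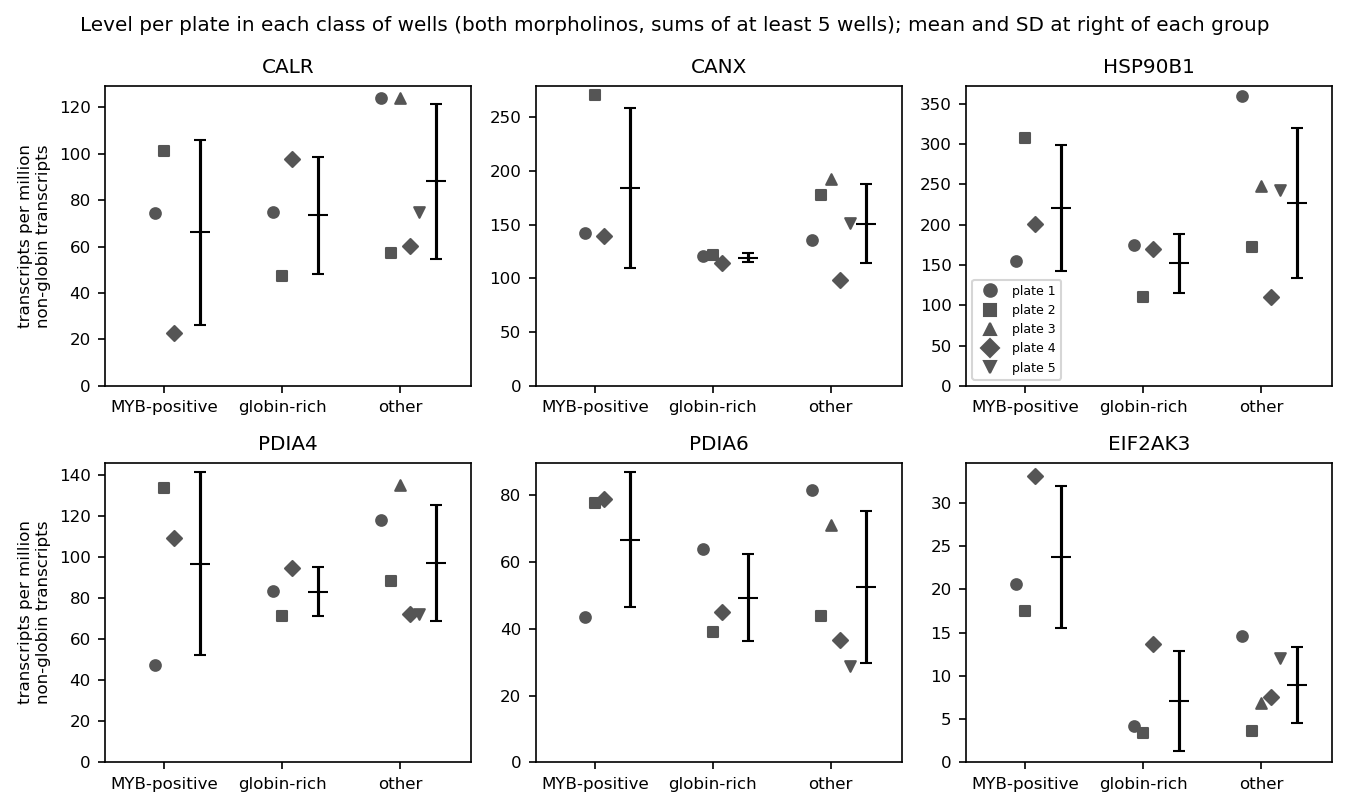
Level in non-globin CPM (y axis) of each gene in MYB-positive, globin-rich and other wells, 1 symbol per plate over both morpholinos, with the mean and SD beside each group. Only EIF2AK3 has a class, the MYB-positive wells, whose plates all lie above those of the other classes, and it was not called.

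The share of wells with a UMI also depends on depth. CALR was found in 29.7% of MYB-positive (exact 95% interval 20.5 to 40.2%), 10.9% of globin-rich (8.43 to 13.7%) and 35.8% of other wells (30.1 to 41.8%). After each well was thinned to 1000 UMIs these shares were 5.49%, 1.58% and 9.59%. HSP90B1, found in 68.1%, 21.5% and 56.1% of wells, fell to 12.1%, 4.20% and 22.1%. At equal depth, globin-rich wells showed both genes least often, and 1000 UMIs hold fewer non-globin transcripts in these wells. For EIF2AK3 the thinned shares were 1.10%, 0.18% and 0.37%, each below the share that 3 wells of the class would give. These intervals cover counting error only, and no class here is known to lack these genes, so no background share from free RNA was set beside them. Within the globin-rich wells, CALR was found in 5.84% of std MO (3.30 to 9.44%) and 15.0% of irf8 MO wells (11.2 to 19.4%), and after thinning in 1 of 257 and 8 of 314 wells. PDIA4, found in 7.39% and 16.9%, was found after thinning in 6 and 7 wells (2.33% and 2.23%), and PDIA6 in 2 and 7 wells. At a depth of 1000 UMIs the exact 95% intervals of std MO and irf8 MO wells overlapped for CALR, PDIA4 and PDIA6. For CALR they were 0.0099 to 2.15% and 1.11 to 4.96%. A difference between morpholinos in these shares was not tested.

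The chaperones were spread very unevenly over the globin-rich wells. In the 115 wells of plates 1, 2 and 4 with a globin share of 10 to 40%, which make up 20.2% of the wells, lay 94.0% of the CALR UMIs (171 of 182), 87.4% of those of PDIA4, 85.2% of PDIA6, 83.0% of HSP90B1 and 81.5% of CANX. These wells were deeper, with a median of 11391 transcripts against 4738 in wells of at least 40% globin. In non-globin CPM, CALR was 13.9-fold, PDIA4 6.24-fold, PDIA6 5.16-fold, HSP90B1 4.38-fold and CANX 3.95-fold higher in them. These values are a description, since the limit of 40% was set after the levels had been seen.

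**Figure D4:**
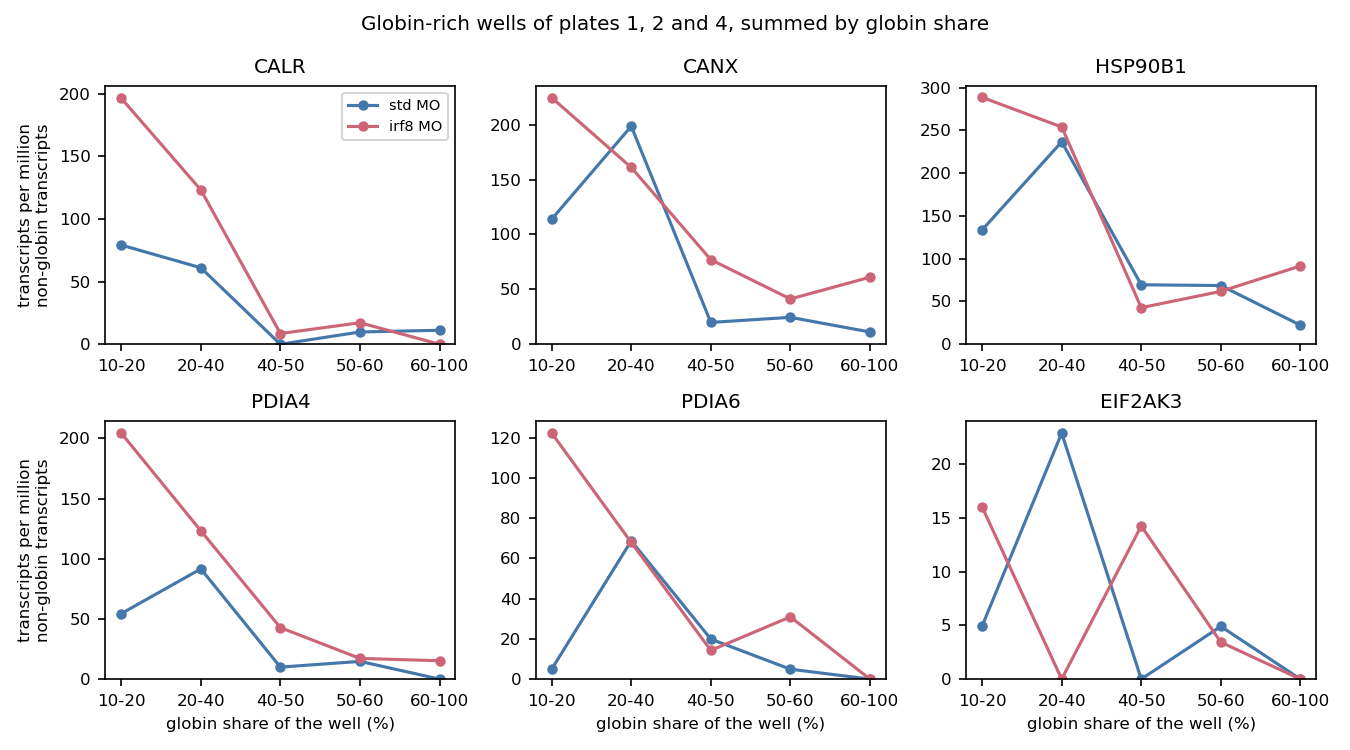
Level in non-globin CPM (y axis) in the globin-rich wells of plates 1, 2 and 4, summed in steps of the globin share (x axis, percent of the well's transcripts) for each morpholino. For CALR, CANX, HSP90B1, PDIA4 and PDIA6 the wells of 10 to 40% globin lie above those of at least 40%, apart from PDIA6 in std MO wells of 10 to 20%, and EIF2AK3 rests on 19 UMIs.

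To give this gradient by plate, the globin-rich wells of each plate were split at the plate's median globin share into a low-globin set (284 wells) and a high-globin set (285 wells), and globin genes were left out of counts and library sizes. CALR had 94.2, 60.2 and 120 non-globin CPM in the low-globin set and 6.40, 12.7 and 21.8 in the high-globin set on plates 1, 2 and 4, from 174 and 8 UMIs. CANX had 149, 150 and 139 in the low-globin and 19.2, 44.3 and 30.6 in the high-globin set. HSP90B1 had 213, 132 and 196 in the low-globin and 38.4, 50.6 and 83.0 in the high-globin set. Each of the 3 was higher in the low-globin set on all plates, without overlap. PDIA4 was at 105, 97.2 and 116 in the low-globin set and at 6.40, 0 and 21.8 in the high-globin set, and PDIA6 at 79.9, 53.2 and 54.3 against 6.40, 0 and 13.1, where 3 UMIs on plate 2 would be 19.0 in the high-globin set. EIF2AK3, with 17 and 2 UMIs, was not tested.

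The fitted log2 differences were 2.47 for CALR (SE 0.45), 3.08 for PDIA4 (SE 0.51), 2.82 for PDIA6 (SE 0.62), 2.01 for CANX (SE 0.36) and 1.40 for HSP90B1 (SE 0.32). They repeat, in the same wells, a pattern that had already been seen, and with 4 to 33 UMIs in the high-globin set these genes passed the filter through the low-globin set, so they are a description and no test. At an adjusted p of 0.05 edgeR put 5 of the 5 genes tested and 21.9% of 3703 genes higher in the low-globin set, and 40.4% of genes in either direction. In std MO wells alone 1 of the 5, HSP90B1, passed the filter, with a log2 difference of 1.76.

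**Figure D5:**
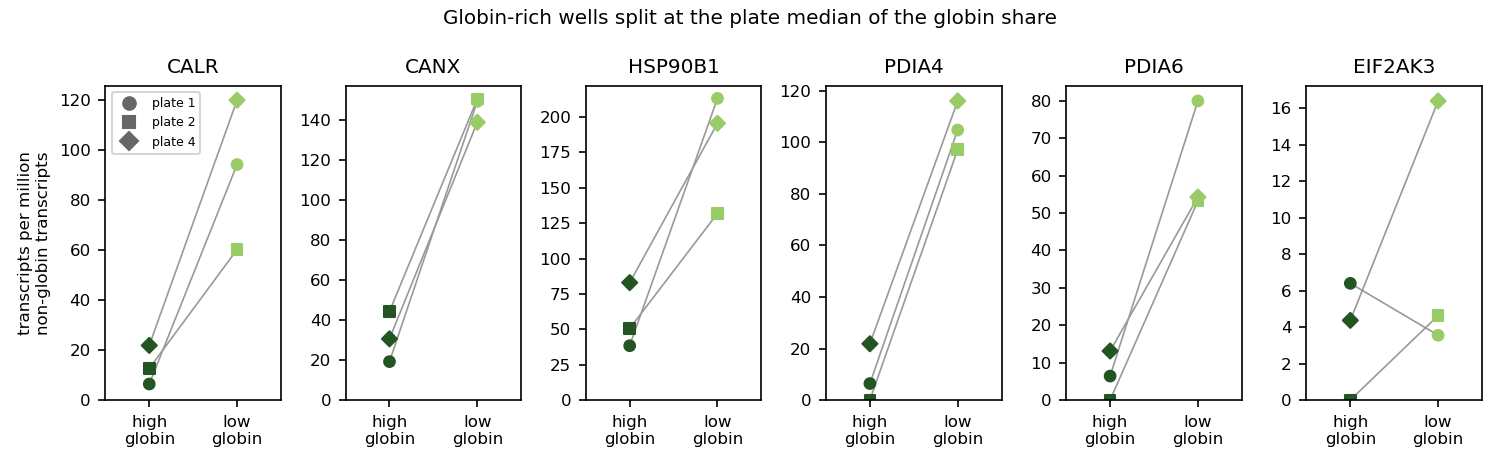
Level in non-globin CPM (y axis) in the high-globin and low-globin sets of the globin-rich wells, 1 line per plate (1, 2 and 4). CALR, CANX, HSP90B1, PDIA4 and PDIA6 lie higher in the low-globin set on every plate, CALR at 60.2 to 120 against 6.40 to 21.8.

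Other measures moved with the sets. Median depth was 6936, 5977 and 8407 transcripts in the low-globin and 4251, 4106 and 4860 in the high-globin set. Of the low-globin wells 65.8% were irf8 MO, and of the high-globin wells 44.6%. The erythroid list took 1.63 to 2.57% of non-globin transcripts in the low-globin and 3.69 to 4.20% in the high-globin set. The HSPC list (13 genes, 13 and 9 of them seen) took 0.201 to 0.271% against 0.126 to 0.154%, and the cartilage list (19 genes, 19 and 18 seen) 0.283 to 0.640% against 0.0499 to 0.108%. The muscle list overlapped, with 0.606 to 2.05% against 0.650 to 3.08%. The macrophage list lay lower in the low-globin set, at 0.0379 to 0.0509% against 0.0608 to 0.0696%, as did the thrombocyte list, at 0.0147 to 0.0171% against 0.0304 to 0.0341%. The neural list, at 0.0719 to 0.165% against 0.0201 to 0.0928%, and the lens list, at 0.0954 to 1.23% against 0.0633 to 0.326%, overlapped. The part of these shifts in the result was not tested.

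A globin share under 40% was found in 26.4% of the irf8 MO and 12.5% of the std MO globin-rich wells. Within the wells of 10 to 40% globin (32 std MO and 83 irf8 MO wells, with only 3 std MO wells on plate 2) the log2 fold changes were 1.69 for PDIA6, 1.14 for CALR, 1.10 for PDIA4, 0.41 for HSP90B1 and 0.40 for CANX, against 1.81, 1.29, 1.41, 0.50 and 0.69 over all globin-rich wells. None was called (adjusted p of 0.23 to 0.75 by edgeR), in a comparison that called 5 of 2483 genes, where 315 of 4138 were called over all globin-rich wells. The part of the globin share in the difference between morpholinos was not tested. Summed over these plates, CALR held 24 UMIs at 57.5 CPM in the std MO and 147 UMIs at 126 CPM in the irf8 MO wells of this range. In wells of at least 40% globin CALR was at 3 UMIs (3.37 CPM) and 8 UMIs (5.50 CPM). CANX was at 8 UMIs (8.98 CPM) with the std MO and 43 UMIs (29.6 CPM) with the irf8 MO. PDIA4 was at 4 and 21 UMIs (4.49 and 14.4 CPM), and PDIA6 at 3 and 14 UMIs (3.37 and 9.63 CPM). HSP90B1, the one gene of the 6 that could be tested there, was nearly even, with 25.8 and 26.8 CPM (log2 fold change -0.09, adjusted p = 0.91 by edgeR).

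The other wells were divided by the largest marker list of at least 1% of transcripts, and levels are given for each set as a description, with no test. The 36 wells led by cartilage genes had 278 ± 53.8 CPM of HSP90B1, 187 ± 20.3 of CANX and 111 ± 34.5 of CALR (SD, n = 5 plates). The 108 wells led by muscle genes, 54 of them on plate 3, had 170 ± 74.3, 102 ± 36.2 and 84.0 ± 40.9 CPM (SD, n = 4 plates). For CANX the plates did not overlap, with 161 to 213 CPM in cartilage-led and 74.2 to 153 CPM in muscle-led wells, and for the other genes they did. The 119 wells without a leading list had 252 ± 56.7 CPM of HSP90B1, 196 ± 63.8 of CANX and 144 ± 49.1 of PDIA4, the last against 95.4 ± 29.6 in cartilage-led and 61.1 ± 37.5 in muscle-led wells. In 5 lens-led wells with a median of 14211 transcripts HSP90B1 was at 0 and CALR at 1 UMI, where 3 UMIs would be 37.1 CPM. The 3 neural-led wells had the highest HSP90B1 (84 UMIs, 964 CPM), CALR (33 UMIs, 377 CPM) and PDIA4 (24 UMIs, 274 CPM) of these sets. Their CANX was at 7 UMIs (79.7 CPM), and they are too few for a spread between plates. Their median depth was 6264 transcripts, while 3 UMIs would be only 34.4 CPM of their sum, so 1 well held most of its transcripts. The levels of the neural-led set thus rest largely on that well.

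The wider ER machinery was read from lists of 118 further genes: 39 for folding, 23 targets of the stress response, 12 for stress sensing and signalling, 29 for the translocon and 15 for exit from the ER. Between morpholinos 1 of these genes was called. HYOU1, an ER chaperone of the HSP70 family and a target of the unfolded protein response, had 17.2, 14.6 and 33.3 CPM in std MO and 70.3, 61.0 and 96.6 CPM in irf8 MO globin-rich wells. The groups did not overlap (log2 fold change 1.51, SE 0.27, adjusted p = 0.026 by edgeR). The call was lost when plate 1, 2 or 4 was left out (adjusted p of up to 0.14 by edgeR) and with DESeq2 (adjusted p = 0.061). With 9, 4 and 17 UMIs in std MO wells, HYOU1 passed the filter on low counts through the irf8 MO wells. Its call carries no weight beyond its own values. It was 1 of 68 listed genes tested there (1.47%, against 7.61% of all genes) and 1 of 18 folding genes, and none of 12 stress targets, 7 sensors, 23 translocon and 8 exit genes was called in either direction. The median log2 fold change was 0.38 for folding genes, 0.39 for translocon genes, 0.35 for exit genes, 0.22 for sensors and 0.00 for stress targets. It was 0.31 for all listed genes tested, against 0.04 for all genes. In MYB-positive wells 0 of 56 and in other wells 0 of 69 of the genes tested were called, beside 0% of all genes in both, with medians of 0.32 and 0.05 against 0.00 and 0.00 for all genes.

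Between classes, calls among the listed ER genes are given beside those among all genes, and no difference in share was tested. Of 99 tested, edgeR called 8 higher and 7 lower (15.2%, against 19.9% of all genes) between MYB-positive and globin-rich wells. It called 2 higher and 3 lower (5.05%, against 7.06%) between MYB-positive and other wells. Between other and globin-rich wells it also called 2 higher and 3 lower (5.05%, against 12.9%). Single lists lay on both sides of the share of all genes. Between MYB-positive and globin-rich wells 25.9% of 27 translocon genes and 6.45% of 31 folding genes were called. The counts over all listed ER genes include pdia2, CREB3L1 and sar1ab, which passed the filter on low counts through the group where they are high. The called genes with the smallest p are named here. CLGN, a relative of calnexin known from mouse testis, was highest in globin-rich wells, with 138, 178 and 147 CPM on plates 1, 2 and 4 against 30.6, 43.8 and 48.1 CPM in MYB-positive wells (log2 difference -2.86, SE 0.31, adjusted p = 5.8e-04 by edgeR). ppp1r15a (GADD34), which counteracts PERK by helping to remove the phosphate from eIF2α, was at 822, 925 and 871 CPM in globin-rich and 259, 331 and 365 CPM in MYB-positive wells (log2 difference -2.41, SE 0.27, adjusted p = 6.3e-04). Both also lay lower in the low-globin than in the high-globin set, with a log2 difference of -1.06 for ppp1r15a, the opposite direction to CALR and CANX. NFE2L2, a transcription factor of the oxidative stress response, was lower in MYB-positive than in globin-rich wells by the test, whose library scaling differs from CPM (log2 difference -1.20, SE 0.30, adjusted p = 0.023 by edgeR). In CPM it was at 32.6, 32.4 and 48.1 in MYB-positive and 49.1, 39.5 and 46.1 in globin-rich wells, so that plate 4 went the other way on this scale. Higher in MYB-positive than in globin-rich wells were the signal peptidase subunit SPCS3 (log2 difference 1.16, SE 0.29, adjusted p = 0.025) and the signal recognition particle receptor subunit srprb (2.49, SE 0.40, adjusted p = 0.0039), both by edgeR. The disulfide isomerase pdia2 held 94 UMIs in MYB-positive and 1 UMI in globin-rich wells of plates 1, 2 and 4. It passed the filter on low counts through the group where it is high and had to differ, so no test is given.

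Against other wells, MYB-positive wells had more EIF2S1, the eIF2α subunit that PERK phosphorylates, with 155, 149 and 236 CPM against 78.5, 51.6 and 36.7 CPM on plates 1, 2 and 4 (log2 difference 1.44, SE 0.32, adjusted p = 0.036 by edgeR). They had less CHAC1, a gene induced by the PERK pathway through ATF4, with 181, 256 and 273 CPM against 398, 451 and 368 CPM (log2 difference -1.09, SE 0.23, adjusted p = 0.032). The ER-anchored transcription factor CREB3L1 and sar1ab, a GTPase of ER exit, held 1 and 4 UMIs in the MYB-positive wells of these plates and passed the filter through the other wells, so no test is given for them. Other wells exceeded globin-rich wells in srprb (log2 difference 1.65, SE 0.41, adjusted p = 0.029), and lay below them in CLGN (-2.94, SE 0.31, adjusted p = 6.7e-04), ppp1r15a (-1.48, SE 0.26, adjusted p = 0.0070) and SEC62, a translocon subunit (-1.71, SE 0.40, adjusted p = 0.024). Of these calls between classes, those of CLGN in both contrasts and of ppp1r15a between MYB-positive and globin-rich wells held with each plate left out. The others kept direction but were lost without at least 1 of plates 1, 2 and 4. Between MYB-positive and globin-rich wells edgeR's adjusted p reached 0.067 for srprb without plate 1 and 0.22 for NFE2L2. The calls of SPCS3, EIF2S1 and CHAC1, and of srprb between other and globin-rich wells, were lost whichever of these plates was left out. With DESeq2 the adjusted p was 0.065 for NFE2L2 and 0.052 for srprb between other and globin-rich wells, so neither was called.

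Along the gradient, again as a description, 21 of the 62 listed genes tested were higher in the low-globin set and 4 were lower, 40.3% in either direction against 40.4% of all genes. These were 6 higher and 1 lower of 13 folding genes, 8 and 1 of 23 translocon genes, 4 and 2 of 13 stress targets, 2 and 0 of 7 exit genes, and 1 and 0 of 6 sensors. The median log2 differences of folding genes, translocon genes and stress targets were 0.92, 0.83 and -0.47, against 0.02 for all genes. The leading genes were SERPINH1, the collagen chaperone HSP47 (log2 difference 2.47, SE 0.26), the proline isomerases PPIB (1.42, SE 0.25) and FKBP9 (2.59, SE 0.49), and among those lower SEC62 (-0.99, SE 0.30). The cartilage list, which is made up largely of collagen genes, took a larger share of non-globin transcripts in the low-globin set. A link between these values was not tested.

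The genes whose level across plates and classes was most like that of CALR were GPATCH8 (Pearson r of 0.95), marcksl1b (0.94), maptb (0.94), si:dkey-276j7.1 (0.93) and HSPA8, the constitutive cytosolic HSP70 (0.93). This r of log2(CPM + 1) was taken over 11 sums that share plates and among 2074 genes with a mean of at least 50 CPM, and it is a description. The chaperones were not among them: HSP90B1 ranked 320th for CALR (r of 0.67), CANX 526th (0.54), PDIA4 599th (0.50), PDIA6 807th (0.39) and EIF2AK3 1280th (0.20). The isomerases were closer to each other, since PDIA6 ranked 8th for PDIA4 (r of 0.86) and HSP90B1 10th (0.85). PDIA6 and EIF2AK3 had means under 50 CPM, so their ranks give where their r would fall among the genes compared.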

How the data were processed

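The authors deposited 1 table per SORT-seq plate with estimated counts per gene and well: unique UMIs turned into transcripts by a correction for UMI collisions, not scaled for depth. Undone, the correction (4096 possible UMIs) returned whole numbers for 100% of values (tolerance 1e-06). BWA and GRCz11 are named in the submitters' processing notes, and their roles, versions and annotation are not given in the sources used here. Spike-ins (6.31% of the transcripts of kept wells) were left out. Of 23628 gene IDs, 18186 had a symbol.

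Wells of at least 1000 transcripts were classed by globin share (at least 10%, 12 globin IDs) and MYB UMIs. Deposited estimated counts were summed per plate, morpholino and class (at least 5 wells), rounded, filtered with filterByExpr and tested with edgeR 4.0.16 (TMM, quasi-likelihood, plate as block) in R 4.3.3, with Benjamini-Hochberg adjustment over all genes at 0.05. Sums held 95827 to 1139630 transcripts in the MYB-positive and globin-rich tests. The fit was tested on simulated data. Pairing by plate comes from the labels, and the 2 sums of a plate deviated together (correlations of 0.376, 0.427, 0.456, 0.479 and 0.245). Alternatives covered normalization, DESeq2 1.42.0, filters, depth, class limits, the block and each plate left out. The genes named are the 6 with rows, up to 3 called genes per direction and comparison from the ER lists, and those most like CALR. The members and lists were chosen with earlier results of these data known. Thinning used a fixed seed. Plots were drawn with matplotlib 3.10.9. A count of 3 is the floor used for genes at 0, and counting intervals are at 95%.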

Additional observations from a re-analysis of the deposited data

Results flagged for a closer look

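Among 24 groups of 5 plates, 5 held a plate far from the other 4 for 1 gene, where chance gives about 1 in 20, or 1.2. In std MO wells over all classes, plate 5 was high for PDIA4 (93.3 CPM against 41.0 to 55.3 on the other plates) and PDIA6 (64.1 against 30.3 to 37.2 CPM). That sum held 35 wells, 31 of them other wells and 2 of them MYB-positive. The 2 MYB-positive wells held 23 of the 51 PDIA4 UMIs and 24 of the 35 PDIA6 UMIs. The other wells of that sum stood at 76.8 CPM of PDIA4 and 31.3 CPM of PDIA6. For EIF2AK3 plate 5 was high in irf8 MO wells, over all classes (21.9 against 5.20 to 8.66 CPM) and in other wells (31.7 against 3.93 to 8.31 CPM), where its value rests on 2 UMIs in 8 wells. CANX in other irf8 MO wells was low on plate 4, with 93.8 against 200 to 214 CPM, a sum in which 1 well held 32.8% of the transcripts.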

How the results depend on the processing

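For differences between morpholinos, between classes and along the split by globin share, 684 of the 749 comparisons of a gene's log2 value with an alternative kept direction and call, 23 lost the call, 2 gained it and 40 turned direction, and the cause was not tested. In globin-rich wells the count of 3 called chaperones became 0 with DESeq2, 1 with at least 10 counts in every sum (HSP90B1, the 1 gene left), 1 with no replicate block, 1 without the largest well of each sum, 0 after thinning (no gene left to test), 0 at a globin share of at least 5%, of at least 20%, of 10 to 40% or of at least 40%, and 0 to 0 with a plate left out. In MYB-positive wells it was 0 to 1 with a plate left out. Between low-globin and high-globin sets, a description, the count of 5 became 0 with at least 10 counts in every sum (no gene left) and 0 in std MO wells. The globin ranges of 10 to 40% and at least 40%, the split by globin share and the tests of differences between classes were chosen after seeing the data. Without the block for plate CALR and PDIA6 lost their calls in globin-rich wells (adjusted p of 0.12 and 0.064 by edgeR), and it changed no other call of these genes.

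For HSP90B1, between morpholinos in all kept wells, the log2 value of 0.10 became -0.00213 without the largest wells. For CALR, between morpholinos in MYB-positive wells, the log2 value of 0.47 became -0.28 to 0.74 with a plate left out. For HSP90B1, between morpholinos in globin-rich wells, the log2 value of 0.50 became -0.0858 at a globin share of at least 40%. For PDIA6, between morpholinos in other wells, the log2 value of 0.0984 became -0.26 to 0.39 with a plate left out. For CALR, between morpholinos in other wells, the log2 value of 0.13 became -0.13 to 0.33 with a plate left out. For PDIA4, MYB-positive against globin-rich wells, the log2 value of -0.0107 became 0.0245 with RLE size factors, 0.0228 with DESeq2, 0.0645 with no filter, 0.038 with no replicate block, 0.15 with whole UMIs, 0.36 without the largest wells, 0.087 without globin genes, 0.097 at a globin share of at least 5%, 0.60 at a globin share of at least 20%, 0.36 in std MO wells and -0.20 to 0.33 with a plate left out. For PDIA6, MYB-positive against globin-rich wells, the log2 value of 0.28 became -0.00196 with at least 2 MYB UMIs and -0.00654 to 0.67 with a plate left out. For CALR, MYB-positive against globin-rich wells, the log2 value of -0.35 became 0.0617 without the largest wells, 0.63 at a globin share of at least 20%, 0.30 in std MO wells and -0.90 to 0.29 with a plate left out. For PDIA6, MYB-positive against other wells, the log2 value of 0.11 became -0.11 with at least 10 counts in every sum, -0.13 without the largest wells, -0.41 with at least 2 MYB UMIs, -0.64 in std MO wells and -0.11 to 0.54 with a plate left out. For CANX, MYB-positive against other wells, the log2 value of 0.13 became -0.0716 with at least 10 counts in every sum and -0.26 after thinning. For HSP90B1, MYB-positive against other wells, the log2 value of -0.0887 became -0.45 to 0.45 with a plate left out. For PDIA4, MYB-positive against other wells, the log2 value of -0.25 became -0.56 to 0.18 with a plate left out. For EIF2AK3, other against globin-rich wells, the log2 value of 0.41 became -0.25 to 0.97 with a plate left out. For CALR, other against globin-rich wells, the log2 value of 0.16 became -0.0801 to 0.35 with a plate left out. For PDIA4, irf8 effect, globin-rich minus MYB-positive wells, the log2 value of 0.00248 became -0.48 to 0.66 with a plate left out. For HSP90B1, irf8 effect, globin-rich minus MYB-positive wells, the log2 value of -0.44 became -1.16 to 0.053 with a plate left out. For CANX, irf8 effect, globin-rich minus MYB-positive wells, the log2 value of -0.0359 became -0.12 to 0.0805 with a plate left out. For CALR, irf8 effect, MYB-positive minus other wells, the log2 value of 0.37 became -0.48 to 0.87 with a plate left out.

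Over all genes, the 315 called between morpholinos in globin-rich wells became 203 with DESeq2, 590 with no filter, 196 after thinning, 33, 150 and 9 without plates 1, 2 and 4, 86 at a globin share of at least 5%, 521 at 20% or more, 5 at 10 to 40% and 587 at 40% or more. In MYB-positive wells 0 became 185 without plate 4, 120 with no filter and 41 at a globin share of at least 20%. In all kept wells 1 became 216 with DESeq2, 356 with no filter, 114 with at least 10 counts in every sum and 127 after thinning. In other wells 0 became 20 with DESeq2 and 70 with no filter. Between classes, leaving out a plate gave 444 to 1038 of 1737, 27 to 177 of 615 (1554 with no replicate block), and as few as 197 of 1126. For the split by globin share 1495 became 767 with DESeq2 and 217 in std MO wells. Sums of 1 to 34 UMIs of the 5 tested genes in std MO globin-rich wells limit what can be seen there. Of 48 mean levels 10, all in globin-rich wells, moved by more than the SD between plates when globin genes were left out of the denominator.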
